A study of Mus musculus with 6 samples.

Results

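The 10 genes described here encode surface proteins by which adipocyte progenitors and the stromal cells around them are recognised: *Pdgfra*, *Pdgfrb*, *Dpp4*, *Pi16*, *Cd55*, *Cd34*, *Ly6a*, *Dlk1*, *Icam1*, and *F3*. They were chosen by gene symbol, and all 10 were found among the 55491 identifiers of the deposited table and among the 32664 genes with at least 1 count. RNA was sequenced from IWAT (inguinal white adipose tissue) of male C57BL/6J mice at 4 weeks of age on regular chow, 3 with the genotype Ebf2+/+ and 3 with the genotype Ebf2 E165X/+ (labelled p.E165X/+), with 1 library per mouse and no treatment. Heterozygous mice carry 1 copy of a nonsense codon that was knocked in with CRISPR/Cas9, so that all cell types bear the allele and not only progenitors, and whole tissue was sequenced. Total counts ran from 106820505 to 135039488 per library. No library had fewer than 10 counts of any of the 10 genes.

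Adipocytes arise from PDGFR-expressing mesenchymal progenitors that lie along vessels and in the connective tissue sheets of the fat depot. In mouse subcutaneous fat, DPP4- and PI16-marked interstitial cells are regarded as early progenitors, ICAM1-marked cells as preadipocytes that are further committed, and CD142-marked cells (the product of *F3*) as stromal cells that restrain adipogenesis. EBF2 is a helix-loop-helix transcription factor that marks and directs adipogenic precursors, in particular those of brown and beige adipocytes, and the comparison asks whether the surface genes of these populations differ in IWAT when 1 *Ebf2* copy bears the nonsense codon.

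RefSeq promoter sequences (build GRCm38.p6, 250 bases before to 50 bases after the annotated start) were matched for 8 of the 10 genes and searched for the binding consensus of EBF factors, TCCC and GGGA with any 2 bases between them, on both strands. *Ly6a* and *Pdgfrb*, whose chromosome was left out of the search of the 10 genes, were not searched. The consensus was in the promoter of 1 of the 8 genes, *Dpp4*, and in 0.904% of all 32851 promoters. Its 8-letter core CCCNNGGG, which lies within the consensus, was in 2 of the 8, *Dpp4* and *Cd55*, and in 13.7% of all promoters. Both are shown 5′ to 3′ on the strand of the gene with the match in capitals, starting 115 bases before the annotated start in *Dpp4* (consensus; chr2:62412182-62412481, minus strand) and 105 bases before it in *Cd55* (core; chr1:130462695-130462994, minus strand). The promoter of *Dlk1* (chr12:109452573-109452872, plus strand), the gene with the largest measured difference of the 10, is shown with them, and neither form was found in it. These are matches of letters and no binding was measured.
Dpp4: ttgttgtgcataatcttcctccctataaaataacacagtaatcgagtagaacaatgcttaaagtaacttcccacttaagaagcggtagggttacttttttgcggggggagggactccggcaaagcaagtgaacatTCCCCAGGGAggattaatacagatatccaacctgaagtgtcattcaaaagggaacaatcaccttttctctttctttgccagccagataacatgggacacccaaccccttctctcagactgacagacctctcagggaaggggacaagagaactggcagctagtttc
Cd55: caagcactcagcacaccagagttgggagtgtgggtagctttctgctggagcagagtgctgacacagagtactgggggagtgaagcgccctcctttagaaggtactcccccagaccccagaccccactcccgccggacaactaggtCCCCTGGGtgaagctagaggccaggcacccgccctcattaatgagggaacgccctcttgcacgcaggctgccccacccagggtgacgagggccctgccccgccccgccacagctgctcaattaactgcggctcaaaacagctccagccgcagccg
Dlk1: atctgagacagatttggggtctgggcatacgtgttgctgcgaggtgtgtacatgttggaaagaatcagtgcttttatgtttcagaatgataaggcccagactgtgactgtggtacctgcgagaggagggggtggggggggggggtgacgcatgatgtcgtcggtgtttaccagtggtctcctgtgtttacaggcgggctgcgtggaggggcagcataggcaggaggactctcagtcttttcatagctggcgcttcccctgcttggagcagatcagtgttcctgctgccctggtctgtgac

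Levels are given as CPM, in which counts are set against the library size after TMM scaling. *Ebf2* itself was measured first as a check of the labels. Its level was 38.3, 41.3, and 37.2 CPM in Ebf2+/+ mice 1 to 3 and 22.8, 22.9, and 21.1 CPM in Ebf2 E165X/+ mice 1 to 3. The genotypes did not overlap, with a log2 fold change of −0.81 ± 0.076 (SE). In edgeR's quasi-likelihood test its adjusted *P* was 0.0596, just above the threshold of 0.05, and in DESeq2 it was 1.23e-13. These counts do not separate the wild-type and variant transcripts, which the study detected equally by RT-qPCR in Ebf2 E165X/+ IWAT.

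Some libraries differed in the RNA of other tissues. Skeletal muscle genes took 3.72% of the counts of Ebf2 E165X/+ mouse 3, against 0.0711% to 0.670% in the other 5 mice, and their most abundant gene, *Myh4* (a fast myosin heavy chain), reached 11439 CPM there. Mesothelial genes were also highest in that mouse. The keratin *Krt5* was at 50.3, 22.2, and 17.0 CPM in Ebf2+/+ mice 1 and 3 and Ebf2 E165X/+ mouse 1 and at 0.224 CPM or less in the other 3. B cell genes, led by *Ms4a1* (CD20), were lowest in Ebf2+/+ mouse 1 at 0.0334% of counts, against 0.0542% to 0.0699% elsewhere. Adipocyte markers were abundant in each library, with *Adipoq* (adiponectin) between 819.8 and 1303 CPM. The 8 adipocyte genes together took 0.676% of counts in Ebf2 E165X/+ mouse 3 and 1.04% to 1.14% in the other 5. Fibroblast matrix genes, with *Col3a1* the most abundant, took 2.16% of counts in Ebf2+/+ mouse 2 and 2.60% to 2.87% in the other 5.

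Divided by the length of the merged exons, *Ly6a* had the highest level, 154 ± 23.0 CPM per kb (SD, n = 3) in Ebf2+/+ mice. *Cd34* followed at 38.4 ± 7.43, *Cd55* at 25.5 ± 2.91, *Pdgfrb* at 22.9 ± 2.01, and *Pi16* at 20.6 ± 5.06 CPM per kb. *Pdgfra* at 13.0 ± 2.40, *Dpp4* at 12.7 ± 1.60, *Icam1* at 12.2 ± 2.27, and *F3* at 9.21 ± 1.40 CPM per kb formed the lower range. *Dlk1* stood last, at 0.443 ± 0.0393 CPM per kb. Over the 6 libraries, neighbours in this order overlapped except at 3 steps, from *Ly6a* to *Cd34*, from *Pi16* to *Pdgfra*, and from *F3* to *Dlk1*. With the longest transcript as the length, *Pi16* came before *Pdgfrb* and *Icam1* before *Pdgfra* and *Dpp4*. The study's methods name a 3′ mRNA protocol, for which counts do not scale with length, while the labels name another maker's kit, so that the order per length holds only if reads covered whole transcripts.

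**Figure D1:**
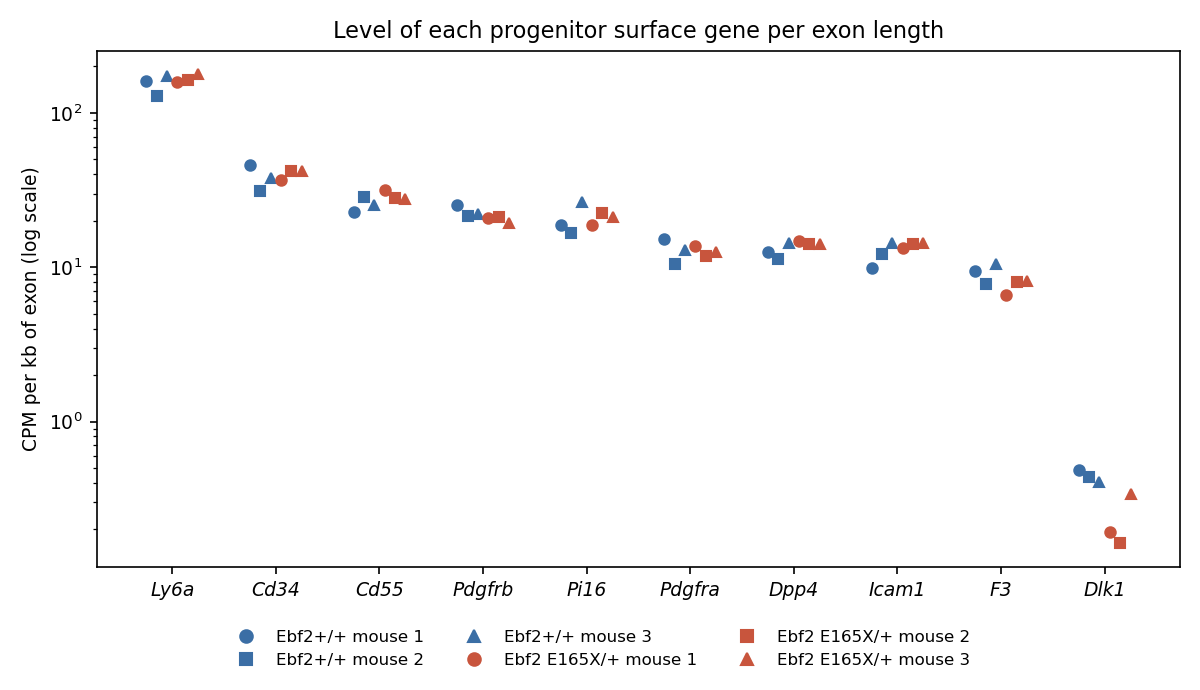
Level of each of the 10 genes in each library, in CPM per kb of merged exons on a log axis, ordered by the Ebf2+/+ mean; blue marks Ebf2+/+ mice, red Ebf2 E165X/+ mice, and the shape gives the mouse number. *Ly6a* lies above all other genes and *Dlk1*, at 0.443 CPM per kb in Ebf2+/+ mice, far below them.

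None of the 10 genes passed both thresholds, 0.05 for the adjusted *P* and 1.5 for the fold change on a linear scale. edgeR called 3 of the 32664 genes tested (0.00918%), and DESeq2 called 98 of 16078 with an adjusted *P* (0.61%), with 0 of the 10 among either. At an unadjusted *P* under 0.05, edgeR passed 1 of the 10, *Dlk1*, which was lower in Ebf2 E165X/+ mice, against 4.77% of all genes tested in either direction and 3.09% in the lower direction. The 3 mice of one genotype lay wholly to one side of the 3 of the other for 2 of the 10 genes, *Dlk1* and *Pdgfrb*, both lower in Ebf2 E165X/+ mice, while among 18905 genes counted 10 times or more in each library 13.4% did so in either direction and 6.78% in the lower direction. In CPM of total counts, with no TMM factor, *Pdgfrb* overlapped and *Dlk1* did not. Without Ebf2+/+ mouse 2, 3 of the 10 had an unadjusted *P* under 0.05 in edgeR, *Dlk1* and *F3* lower and *Cd55* higher. Without Ebf2+/+ mouse 3 they were *Dlk1*, lower, and *Dpp4* and *Icam1*, higher. Of all genes tested, 3.98% and 5.40% passed in those fits. Genes of the 10 without overlap then numbered 4 and 5, beside 21.8% and 27.3% of genes. With all mice, log2 fold changes were above 0 for 6 genes and below 0 for 4, with a median of 0.04, beside 0.01 over all genes tested. The median of the 10 was −0.10 without Ebf2+/+ mouse 2. For 8 of the 10 genes the 95% interval of the fold change excluded a 1.5-fold difference in either direction, the exceptions being *Dlk1* and *F3*. In bulk tissue, fewer cells of a type and less RNA per cell cannot be told apart.

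**Figure D2:**
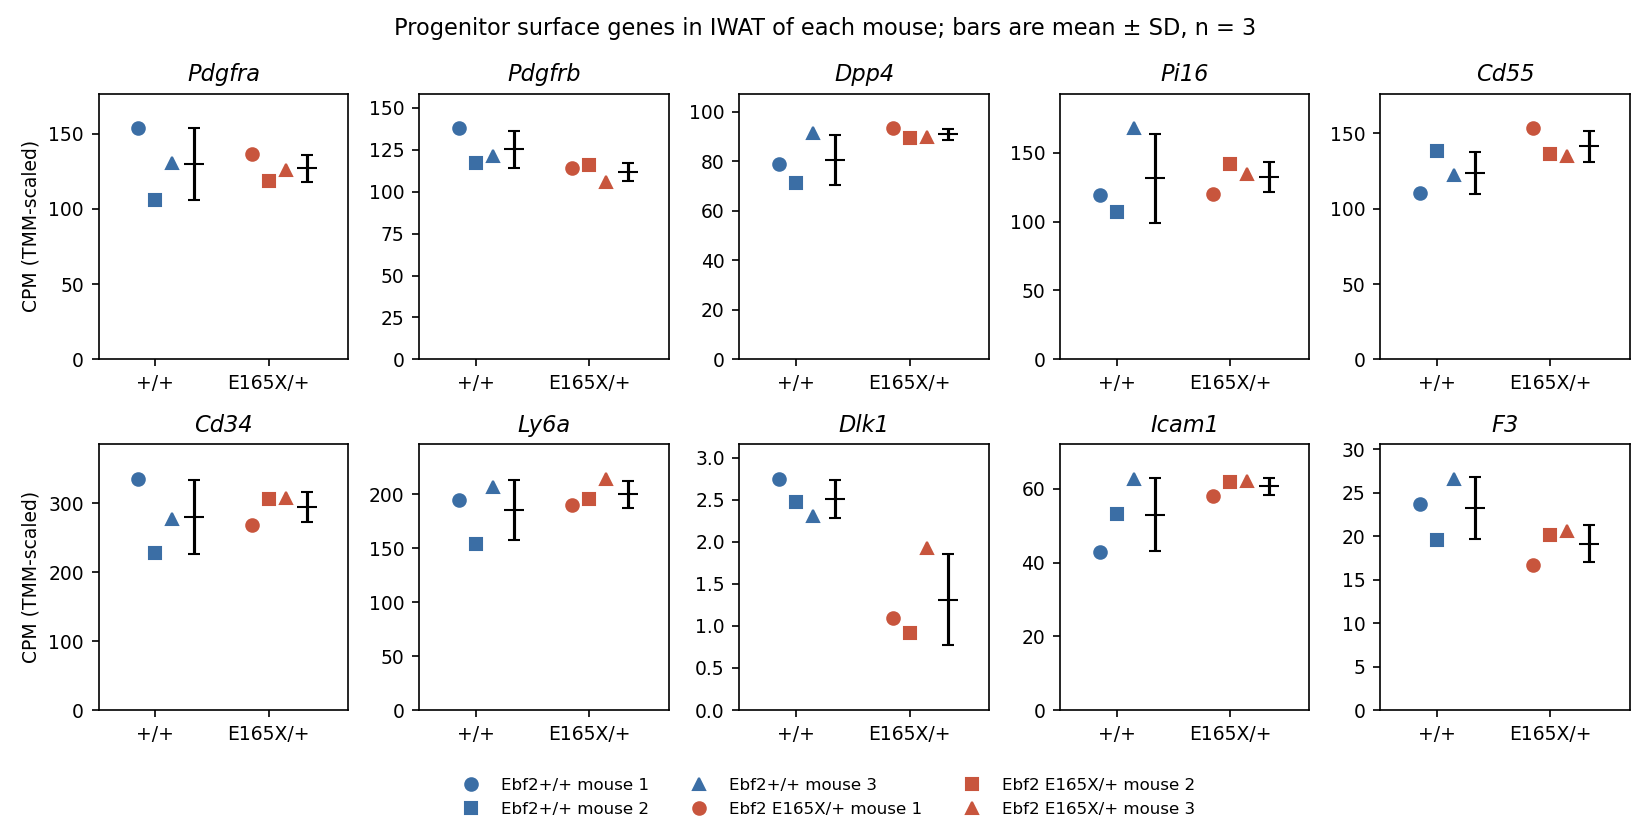
Level of each of the 10 genes in CPM in each mouse, by genotype (Ebf2+/+ blue, Ebf2 E165X/+ red), with mean and SD in black (n = 3) and each axis starting at 0. *Dlk1* and *Pdgfrb* are the 2 genes without overlap on this scale (*Pdgfrb* overlaps without the TMM factor), and Ebf2+/+ mouse 2 (square) is lowest of the 6 for 5 of the 10.

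The PDGF receptors are the tyrosine kinases that carry growth signals into mesenchymal cells, with PDGFRα a broad marker of adipose progenitors and PDGFRβ shared by progenitors and mural cells. *Pdgfra* (chr5:75152292-75198215, GRCm38) was at 154, 106, and 130 CPM in Ebf2+/+ mice 1 to 3 and at 137, 119, and 126 CPM in Ebf2 E165X/+ mice 1 to 3. The groups overlapped, all Ebf2 E165X/+ values lying inside the Ebf2+/+ range, and the log2 fold change was −0.03 (95% interval −0.36 to 0.29, edgeR adjusted *P* = 0.964). With 1 mouse left out it ran from −0.17 without Ebf2+/+ mouse 2 to 0.093 without Ebf2+/+ mouse 1. *Pdgfrb* was at 138, 117, and 121 CPM in Ebf2+/+ mice and at 114, 116, and 106 CPM in Ebf2 E165X/+ mice. The lowest Ebf2+/+ value was only just above the highest Ebf2 E165X/+ value, and the log2 fold change of −0.17 (95% interval −0.37 to 0.04) did not pass the test (edgeR adjusted *P* = 0.783) and was −0.11 without Ebf2+/+ mouse 1. With no TMM factor, *Pdgfrb* was at 133, 115, and 121 CPM of total counts against 119, 123, and 100.4, and the groups overlapped. The ratio of *Pdgfra* to *Pdgfrb* counts overlapped between the genotypes, at 1.03 ± 0.112 and 1.14 ± 0.0956 (SD, n = 3; exact two-sided permutation test *P* = 0.3, adjusted 0.7 over 7 ratios chosen after the values were seen, with 0.1 the smallest *P* that 3 against 3 mice allow).

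Mural cell genes were given beside *Pdgfrb*, since pericytes also express it. *Rgs5*, the most abundant of the 8 mural genes, was at 428, 439, and 439 CPM in Ebf2+/+ mice and at 352, 378, and 393 CPM in Ebf2 E165X/+ mice. *Kcnj8*, a potassium channel subunit of pericytes, was at 35.2, 31.1, and 32.2 CPM against 28.1, 24.9, and 24.9 CPM, without overlap (log2 fold change −0.34 ± 0.085, edgeR unadjusted *P* = 0.00462, adjusted *P* = 0.783). Of the 8 mural genes, 2 were lower without overlap, *Rgs5* and *Kcnj8*, beside 6.78% of genes. The list as a whole had no common direction, with 5 genes higher, 3 lower, and a median log2 fold change of 0.05, which was −0.15 without Ebf2 E165X/+ mouse 3. Its summed share of counts was 0.117%, 0.133%, and 0.122% in Ebf2+/+ mice and 0.1195%, 0.128%, and 0.208% in Ebf2 E165X/+ mice. The part of mural cells in the *Pdgfrb* values was not tested.

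Among the 5 genes of the PDGF list, the ligands of these receptors and a receptor-like gene, 0 passed an unadjusted *P* of 0.05 in edgeR. Log2 fold changes were 0.22 ± 0.14 (SE) for *Pdgfa*, 0.03 ± 0.090 for *Pdgfb*, −0.04 ± 0.076 for *Pdgfc*, and 0.08 ± 0.080 for *Pdgfd*, the 4 ligand genes, and 0.41 ± 0.21 for the receptor-like *Pdgfrl*. *Pdgfb*, made largely by endothelial cells, was the most abundant of the ligand genes, at 37.9 to 46.7 CPM over the 6 mice.

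Among the interstitial progenitor genes, *Dpp4* encodes a membrane dipeptidyl peptidase, *Pi16* a peptidase inhibitor, and *Cd55* a complement decay-accelerating protein. *Dpp4* (chr2:62330073-62412231) was at 78.9, 71.3, and 91.3 CPM in Ebf2+/+ mice and at 93.3, 89.5, and 89.7 CPM in Ebf2 E165X/+ mice. Ebf2+/+ mouse 3 lay among the Ebf2 E165X/+ values, and the log2 fold change was 0.17 (95% interval −0.06 to 0.40, edgeR adjusted *P* = 0.783), with 0.08 without Ebf2+/+ mouse 2 and 0.25 without Ebf2+/+ mouse 3. *Pi16* (chr17:29317680-29330593) was at 119, 107, and 168 CPM against 120, 142, and 134 CPM. Its Ebf2+/+ mice spanned more than the full Ebf2 E165X/+ range, and the log2 fold change was 0.01 (95% interval −0.38 to 0.40, edgeR adjusted *P* = 0.995). With 1 mouse left out it ran from −0.13 without Ebf2+/+ mouse 2 to 0.20 without Ebf2+/+ mouse 3. *Cd55* (chr1:130439027-130462744) was at 110, 138, and 123 CPM against 153, 136, and 135 CPM, so that Ebf2+/+ mouse 2 was above 2 of the Ebf2 E165X/+ mice. Its log2 fold change was 0.19 (95% interval −0.05 to 0.44, edgeR adjusted *P* = 0.783), with 0.10 without Ebf2+/+ mouse 1 and 0.27 without Ebf2+/+ mouse 2.

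The other 13 genes fixed for this population included *Cd248* (endosialin), the most abundant, at 216, 139, and 154 CPM against 174, 182, and 168 CPM. Of the 13, 11 had a log2 fold change above 0 and 2 below 0, with a median of 0.10, and 0 passed an unadjusted *P* of 0.05. The median was −0.06 without Ebf2+/+ mouse 2.

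*Cd34*, a sialomucin, and *Ly6a*, which encodes the antigen Sca-1, are carried by progenitors across many tissues and also by endothelial cells. *Cd34* (chr1:194938819-194961279), by counts the most abundant of the 10 genes, was at 335, 227, and 278 CPM in Ebf2+/+ mice and at 269, 307, and 307 CPM in Ebf2 E165X/+ mice. All Ebf2 E165X/+ values lay inside the Ebf2+/+ range, and the log2 fold change was 0.07 (95% interval −0.28 to 0.42, edgeR adjusted *P* = 0.913). *Ly6a* (chr15:74994877-74998031) was at 195, 154, and 207 CPM against 190, 196, and 214 CPM. The groups overlapped here too, with a log2 fold change of 0.11 (95% interval −0.18 to 0.40, edgeR adjusted *P* = 0.811). Without Ebf2+/+ mouse 2 both directions turned, to −0.072 for *Cd34* and −0.020 for *Ly6a*. Of 9 blood endothelial genes, 8 had a log2 fold change below 0, with a median of −0.13, and 3 were lower without overlap, beside 6.78% of genes. *Pecam1* (CD31), the most abundant, was at 278 to 348 CPM over the 6 mice, while 0 of the 9 passed an unadjusted *P* of 0.05. Among 7 other antigens used to sort stromal cells, *Itgb1* (integrin β1) was the most abundant, at 449 to 505 CPM. Of the 7, 4 had a log2 fold change above 0 and 3 below, with a median of 0.15, which was 0.07 without Ebf2+/+ mouse 1. *Cd24a*, a mucin-like antigen of early adipocyte progenitors that is also abundant on B cells, was at 44.5, 57.9, and 57.8 CPM against 65.5, 65.9, and 85.6 CPM, without overlap (log2 fold change 0.44 ± 0.14, edgeR unadjusted *P* = 0.0166, adjusted *P* = 0.783). B cell genes were lowest in the same Ebf2+/+ mouse 1 as *Cd24a*, and their part in the *Cd24a* values was not tested.

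*Dlk1* encodes delta-like 1 (preadipocyte factor 1), an EGF-repeat membrane protein of preadipocytes that restrains their differentiation and whose gene is expressed from the paternal chromosome. It was the least abundant of the 10 and the one with the largest difference. The library counts of *Dlk1* (chr12:109452823-109463336) were 330, 260, and 286 in Ebf2+/+ mice 1 to 3 and 126, 115, and 247 in Ebf2 E165X/+ mice 1 to 3, which corresponded to levels of 2.75, 2.47, and 2.31 CPM against 1.09, 0.921, and 1.93 CPM. The Ebf2+/+ mice lay close together, whereas among the Ebf2 E165X/+ mice 2 were low and mouse 3 was near the Ebf2+/+ range. The log2 fold change was −0.93 ± 0.30 (SE), or 0.524-fold with a 95% interval of 0.324 to 0.847 (edgeR unadjusted *P* = 0.0149, rank 452 of all genes tested, adjusted *P* = 0.783). DESeq2 gave an unadjusted *P* of 0.0012 and an adjusted *P* of 0.0839, also short of the threshold. With any 1 mouse left out the log2 fold change stayed between −1.32 and −0.73, and the −1.32 was reached without Ebf2 E165X/+ mouse 3 (edgeR adjusted *P* = 0.231), the library rich in skeletal muscle RNA. The part of that tissue in the *Dlk1* level of mouse 3 was not tested.

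The *Dlk1* domain also yields the maternally expressed noncoding RNAs *Meg3* and *Rian*. *Meg3* was at 117, 103, and 127 CPM in Ebf2+/+ mice and at 126, 129, and 140 CPM in Ebf2 E165X/+ mice, and *Rian* at 116, 93.2, and 110 CPM against 131, 120, and 171 CPM. *Rian* did not overlap and lay in the direction opposite to *Dlk1* (log2 fold change 0.40 ± 0.15, edgeR unadjusted *P* = 0.0283, adjusted *P* = 0.783), while *Meg3* overlapped. The ratio of *Dlk1* to *Rian* counts was 0.0237 ± 0.0028 in Ebf2+/+ mice and 0.00908 ± 0.0019 in Ebf2 E165X/+ mice (SD, n = 3), a description that follows from the values of both genes. Of the 13 imprinted genes, 11 had a log2 fold change above 0 and 2 below, with a median of 0.19, which was 0.03 without Ebf2 E165X/+ mouse 3. *H19*, the most abundant, was at 264, 343, and 201 CPM against 272, 147, and 1250.4 CPM, and its neighbour *Igf2*, an insulin-like growth factor, at 19.5, 23.2, and 18.4 CPM against 20.0, 15.5, and 55.2 CPM. Both were high in mouse 3 alone and passed no test.

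**Figure D3:**
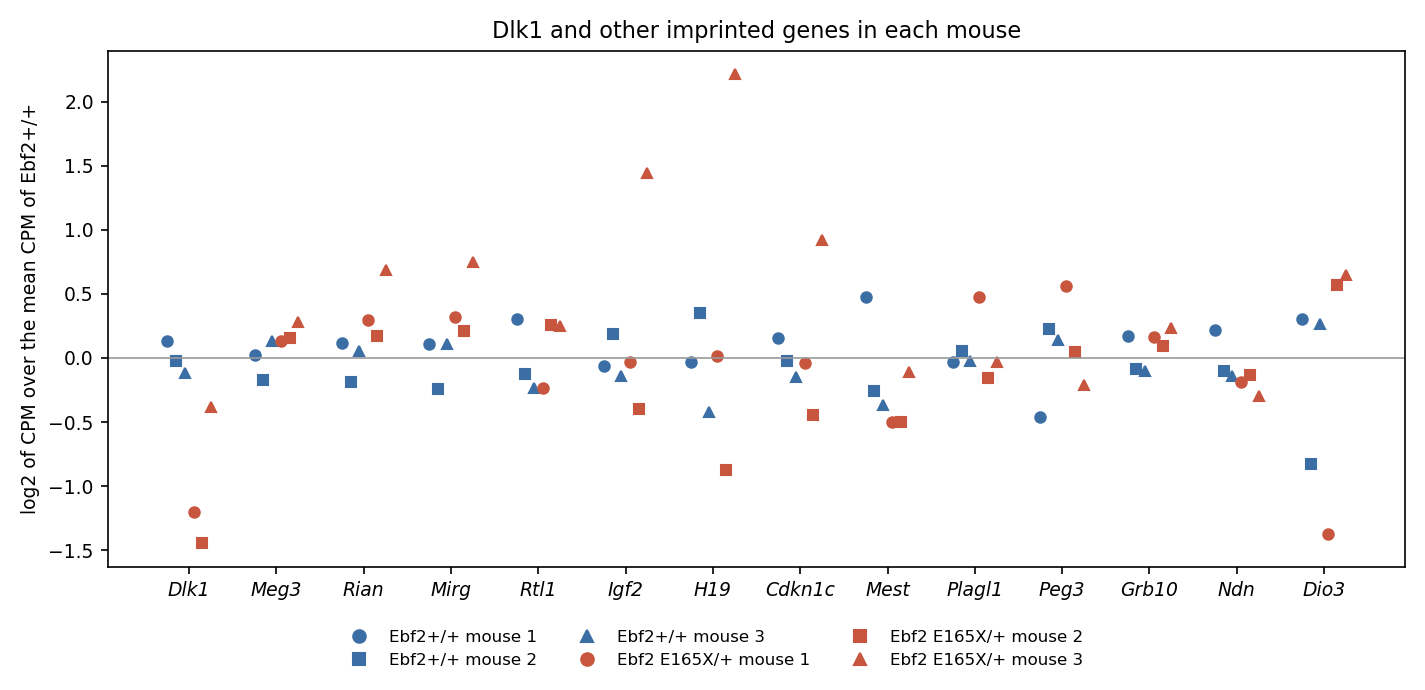
*Dlk1* and the 13 imprinted genes fixed with it, as log2 of the CPM in each mouse over the mean CPM of Ebf2+/+ mice (blue, Ebf2+/+; red, Ebf2 E165X/+; shape, mouse number). *Dlk1* is below the Ebf2+/+ mice in all 3 Ebf2 E165X/+ mice, and *H19* and *Igf2* stand high in Ebf2 E165X/+ mouse 3.

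*Icam1* encodes the integrin-binding adhesion molecule ICAM-1, which leukocytes and endothelium also express. It (chr9:21015985-21028817) was at 42.9, 53.3, and 62.7 CPM in Ebf2+/+ mice and at 58.2, 61.8, and 62.2 CPM in Ebf2 E165X/+ mice. Ebf2+/+ mouse 3 was the highest of all 6, and the log2 fold change was 0.20 (95% interval −0.11 to 0.50, edgeR adjusted *P* = 0.783). With 1 mouse left out it ran from 0.05 without Ebf2+/+ mouse 1 to 0.31 without Ebf2+/+ mouse 3. The ratio of *Dpp4* to *Icam1* counts was 1.54 ± 0.26 against 1.498 ± 0.092 (SD, n = 3; exact two-sided permutation test *P* = 0.8, adjusted 0.933). Both *Icam1* and *Cd55* were lowest in Ebf2+/+ mouse 1, as were the summed shares of the B cell and T cell lists, 0.0334% and 0.0244% of counts. The part of leukocytes in the *Icam1* and *Cd55* values was not tested. Of the 10 committed preadipocyte genes, which are also expressed by adipocytes in part, 8 had a log2 fold change below 0, with a median of −0.16, which was −0.04 without Ebf2 E165X/+ mouse 3, the mouse with the lowest share of adipocyte genes, and 0 passed an unadjusted *P* of 0.05. *Lpl* (lipoprotein lipase), the most abundant, was at 6894, 6346, and 6355 CPM against 6617, 5963, and 4046 CPM. All 8 adipocyte genes had a log2 fold change below 0, with a median of −0.28, *Cfd* (adipsin) the most abundant, and 0 past an unadjusted *P* of 0.05. Among the 8, 3 were lower without overlap, beside 6.78% of genes. Without Ebf2 E165X/+ mouse 3 the median of the 8 was −0.14. The summed share of counts of the 8 was lower in Ebf2 E165X/+ mice by a difference of −0.100 percentage points over all mice. Without mouse 3 that share was higher by 0.0503. Shares are of total counts, with no TMM factor. With the factor applied, the summed levels of the 8 were 11016, 11504, and 10375 CPM in Ebf2+/+ mice and 10731, 10675, and 7125 CPM in Ebf2 E165X/+ mice.

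*F3* encodes tissue factor (CD142), the cell-surface trigger of coagulation. It (chr3:121723537-121735048) was at 23.7, 19.5, and 26.6 CPM in Ebf2+/+ mice and at 16.7, 20.1, and 20.6 CPM in Ebf2 E165X/+ mice. Only Ebf2+/+ mouse 2 lay within the Ebf2 E165X/+ range, and the log2 fold change was −0.28 (95% interval −0.60 to 0.03, edgeR unadjusted *P* = 0.0734, adjusted *P* = 0.783). With 1 mouse left out it ran from −0.41 without Ebf2+/+ mouse 2 (edgeR unadjusted *P* = 0.0161, adjusted *P* = 0.857) to −0.19 without Ebf2 E165X/+ mouse 1 (edgeR unadjusted *P* = 0.224, adjusted *P* = 0.811). The 8 other genes fixed for CD142-marked cells had a median log2 fold change of 0.20, with 5 above 0 and 3 below, which was 0.08 without Ebf2+/+ mouse 1 and −0.00041 without Ebf2 E165X/+ mouse 3. *Igfbp3*, an IGF-binding protein and the most abundant of them, was at 51.4, 62.5, and 67.5 CPM against 74.8, 61.7, and 73.1 CPM, and *Bace2*, an aspartyl protease, was at 14.7, 14.6, and 15.8 CPM against 16.7, 17.5, and 17.9 CPM (log2 fold change 0.21 ± 0.086, edgeR unadjusted *P* = 0.044, adjusted *P* = 0.783).

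**Figure D4:**
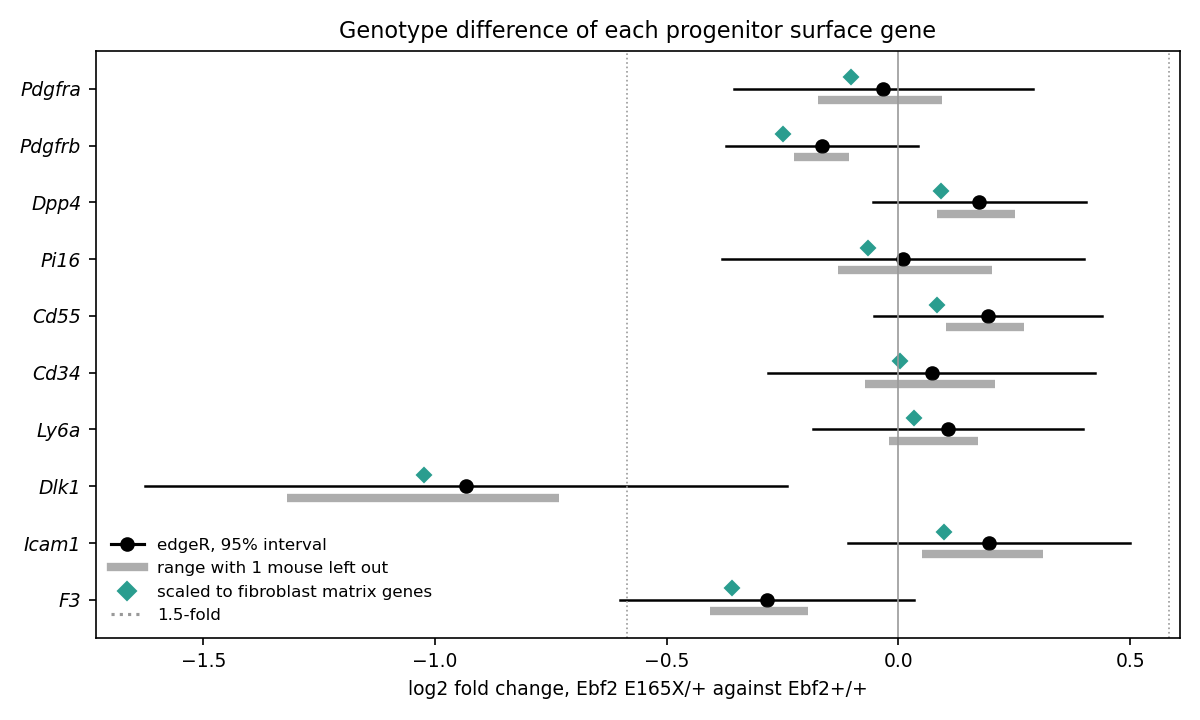
Log2 fold change of each of the 10 genes, Ebf2 E165X/+ against Ebf2+/+: black points and lines are the edgeR estimate and its 95% interval, grey bars the range with 1 mouse left out, green diamonds the estimate with counts scaled to fibroblast matrix genes, and dotted lines a 1.5-fold difference. The *Dlk1* interval, from −1.63 to −0.24, is the one that does not include 0, and the *F3* interval reaches past the lower dotted line.

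Of the 10 genes, 9 varied more among Ebf2+/+ than among Ebf2 E165X/+ mice. The exception was *Dlk1*, with a coefficient of variation of 8.87% in Ebf2+/+ and 41.1% in Ebf2 E165X/+ mice. The coefficient was larger in Ebf2+/+ mice for 11 of 12 fibroblast matrix genes, 10 of 13 interstitial progenitor genes, and all 8 macrophage, 7 T cell, and 6 B cell genes. It was larger there for 2 of 10 committed preadipocyte, 5 of 13 imprinted, 1 of 5 PDGF, 1 of 8 adipocyte, 1 of 8 mural, 2 of 9 blood endothelial, and 0 of 8 skeletal muscle genes, and for 48.4% of the 18905 genes defined above by their counts. Its median over the 10 was 15.1% in Ebf2+/+ and 7.15% in Ebf2 E165X/+ mice, where all such genes had medians of 10.4% and 10.3%. Ebf2+/+ mouse 2 was the lowest of the 6 mice for 5 of the 10, *Pdgfra*, *Dpp4*, *Pi16*, *Cd34*, and *Ly6a*, beside 16.3% of all such genes, and also for 9 of the 12 fibroblast matrix genes. When counts were scaled to the matrix genes, the coefficient of variation over the 6 mice went from 12.7% to 6.74% for *Pdgfra*, from 13.1% to 6.998% for *Cd34*, and from 10.8% to 5.75% for *Ly6a*. It was lower on that scale for 6 of the 10 genes and higher for 4, going from 11.1% to 16.9% for *Cd55*, from 9.03% to 11.6% for *Pdgfrb*, from 13.5% to 15.7% for *Icam1*, and from 39.3% to 42.7% for *Dlk1*. On that scale 3 genes did not overlap between the genotypes, all lower in Ebf2 E165X/+ mice, beside 9.47% of the same 18905 genes in either direction and 8.44% in the lower direction. These were *Dlk1* with a log2 fold change of −1.02, *F3* with −0.36 (edgeR unadjusted *P* = 0.0376, adjusted *P* = 0.933), and *Pdgfrb* with −0.25, and 2 of the 10 had an unadjusted *P* under 0.05, *Dlk1* and *F3*, beside 4.18% of all genes tested, while the scaling itself moved the median of all genes from 0.01 to −0.08.

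The pattern over the 6 mice most like each gene was sought among 191 genes, the listed genes and the other members, by the root-mean-square difference of centred log2 CPM. *Cd34* was closest to *Efhd1* (0.0397) and *Ly6a* to *Anxa3* (0.0461), which were on the interstitial progenitor list, as was *Pcolce2*, closest to *Pi16* (0.131), and *Dact2*, closest to *F3* (0.115). *Pdgfrb* was closest to *Podxl* (0.0354), *Dpp4* to *Meg3* (0.0674), and *Pdgfra* to the integrin gene *Itgam* (0.0719). The closest genes to *Icam1* and *Cd55* were the T cell genes *Cd8a* (0.0571) and *Cd4* (0.0691). No gene was near *Dlk1*, for which *Sox9* came closest at 0.42. With 6 libraries these are descriptions of shared ups and downs, and libraries share depth and tissue composition.

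Of the 20 genes for binding partners and relatives of these proteins, 0 passed an unadjusted *P* of 0.05 and the median log2 fold change was 0.03, with *C3*, the complement component on which CD55 acts, the most abundant at 1478 to 2241 CPM. Among 12 progenitor transcription factors 0 passed, with a median of −0.01, and *Ebf1*, the most abundant, was at 154, 172, and 142 CPM against 149, 172, and 139 CPM. Over the 8 lists that are not cell type markers, 3 of 88 genes passed an unadjusted *P* of 0.05 in edgeR, all higher in Ebf2 E165X/+ mice (*Bace2*, *Cd24a*, and *Rian*). Among all genes tested, 4.77% passed in either direction and 3.09% in the lower direction.

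Among the cell type lists, medians of the log2 fold change were 0.08 for fibroblast matrix, 0.01 for cycling cells (most abundant *Mki67*), 0.20 for lymphatic endothelium (*Lyve1*), and 0.12 for macrophages (*Lyz2*), with 0 genes past an unadjusted *P* of 0.05 in any of these. The T cell list, with *Lck* the most abundant, had a median of 0.21, and *Trac*, a T cell receptor constant gene, was its 1 gene past that threshold, lower in Ebf2 E165X/+ mice (log2 fold change −0.31 ± 0.13, edgeR unadjusted *P* = 0.0472). With 1 mouse left out the medians ran from −0.05 to 0.16 for fibroblast matrix and from −0.03 to 0.25 for macrophages, each lowest without Ebf2+/+ mouse 2, from −0.15 without Ebf2 E165X/+ mouse 1 to 0.19 without Ebf2+/+ mouse 1 for cycling cells, and from 0.07 without Ebf2 E165X/+ mouse 3 to 0.27 for lymphatic endothelium. The T cell median was 0.07 without Ebf2+/+ mouse 1. B cell genes had a median of 0.33, which was 0.12 without Ebf2+/+ mouse 1, and 5 of the 6 were higher in Ebf2 E165X/+ mice without overlap, beside 13.4% of genes in either direction, while 0 passed an unadjusted *P* of 0.05. Epithelial genes had a median of −0.47, with a range of −0.84 to −0.27 with 1 mouse left out. The skeletal muscle median of 1.98 became −1.04 and the mesothelial median of 3.82 became 0.19 without Ebf2 E165X/+ mouse 3. The mesothelial genes *Wt1*, *Upk1b*, and *Msln* passed an unadjusted *P* of 0.05, with levels of at most 0.408 CPM outside that mouse and of 1.39, 3.44, and 7.39 CPM in it, while *Lrrn4* was the most abundant of that list. The 10 surface genes together took 0.0983% to 0.121% of counts in Ebf2+/+ mice and 0.114% to 0.126% in Ebf2 E165X/+ mice.

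**Figure D5:**
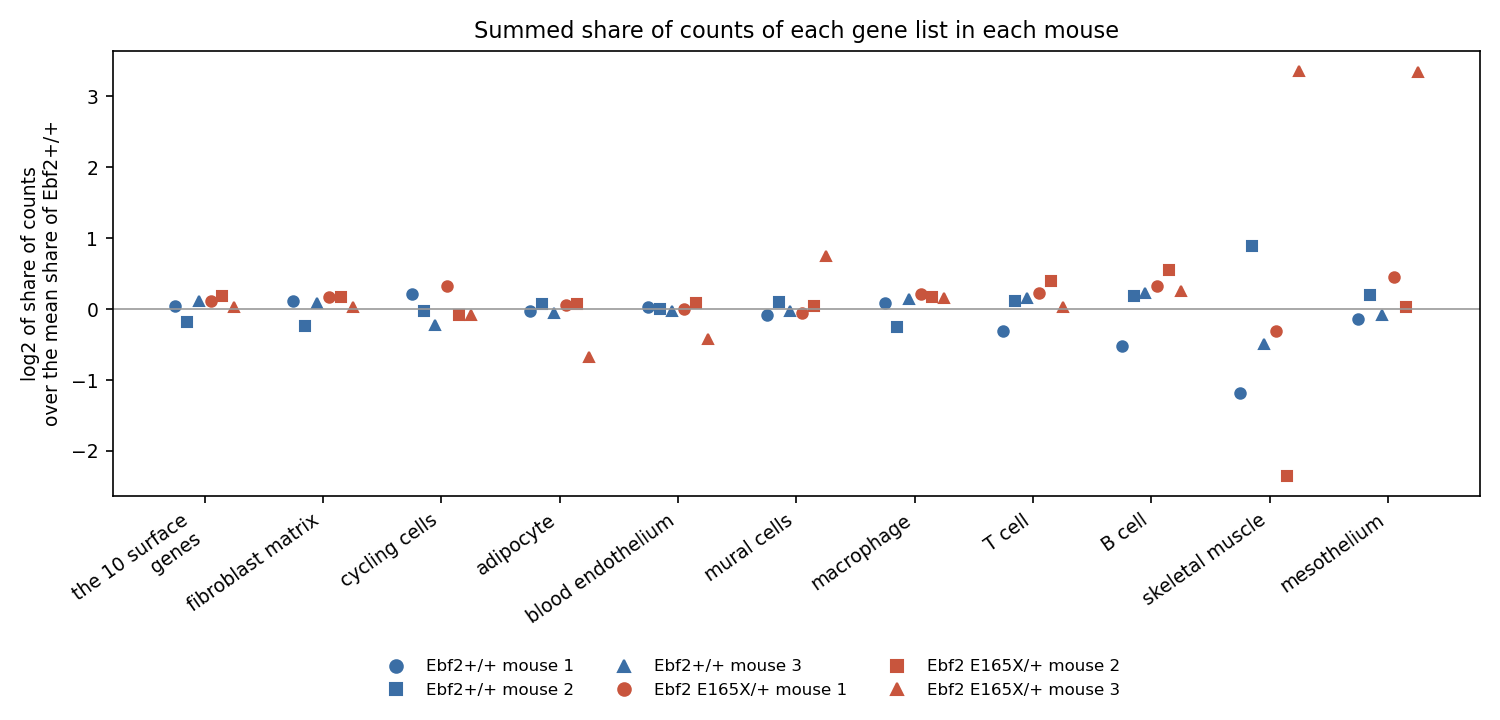
Summed share of counts of the 10 surface genes and of 10 cell type lists in each mouse, as log2 over the mean share of Ebf2+/+ mice (blue, Ebf2+/+; red, Ebf2 E165X/+; shape, mouse number). Skeletal muscle genes spread from 0.0711% to 3.72% of counts, while the 10 surface genes stay between 0.0983% and 0.126%.

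Sequence overlap limits some of these values. The *Cd55* transcript matched its paralog *Cd55b* at 91.9% identity over 1157 bases and that of *Ly6a* matched *Ly6c1* at 92.1% over 191 bases, where the counting could split reads. *Cd55b* was at 0.0565 CPM or less in every mouse. The *Pi16* transcript matched 7 other genes at 90% or more over at least 50 bases, the closest an antisense gene at 100% over 225 bases. Antisense genes overlap *Pdgfra*, *Dpp4*, *Pi16*, *Cd55*, *Cd34*, and *Icam1* in the GENCODE M21 annotation, and the sources used here do not state whether counting used strand.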

How the data were processed

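RNA of IWAT from 3 Ebf2+/+ and 3 Ebf2 E165X/+ mice was analysed as 1 library per mouse, with genotypes from the sample labels. Nothing states litters or batches, so that their part in the differences cannot be told. The edgeR *P* values rest on the spread between these mice, with information shared over genes, and do not cover litters or batches. The authors deposited expected counts per Ensembl gene, not scaled for library size, and all values were whole, so that rounding changed none. The submitters' processing notes name STAR 2.7.8a, RSEM 1.3.3, cutadapt 4.8, and GRCm38, and the study's methods name ENSEMBL 109, so that positions, taken from GENCODE M21 for GRCm38 by Ensembl identifier, may differ from those used in counting.

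Genes with at least 1 count were compared in R 4.3.3 with edgeR 4.0.16 (TMM, glmQLFit, glmQLFTest, genotype only, Benjamini-Hochberg adjustment over 32664 genes). SEs and 95% intervals come from that fit. The thresholds were 0.05 for the adjusted *P* and 1.5 for the linear fold change. For log2 CPM the prior count was 2. DESeq2 1.42.0, limma-voom (limma 3.58.1), other filters and scalings, a replicate block, and each mouse left out were alternatives. The fits were tested on simulated data. The planted changes there were larger than the difference of any member, and the libraries did not differ in tissue composition. Similar transcripts were found with blastn 2.17.0 at 90% identity over at least 50 bases. Counting error alone gives a coefficient of variation of at most 2.27% for 9 members and of 5.50% to 9.33% for *Dlk1*, whose coefficient of variation among Ebf2+/+ mice was 8.87%.

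The members and lists were chosen with earlier results of these data known. By rule, the text names all members, *Ebf2*, the PDGF list, the most abundant gene of each other list with up to 3 genes of smallest unadjusted *P* under 0.05, and the closest gene to each member. The results of 1 cell type list are not reported here. *Igf2*, *Adipoq*, *Cd55b*, and *Ly6c1* were named after their values were seen.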

Additional observations from a re-analysis of the deposited data

How the results depend on the processing

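No member was called after adjustment under any alternative. edgeR called 3 genes, DESeq2 98, and between 1 (without Ebf2+/+ mouse 2) and 11 (without Ebf2 E165X/+ mouse 3) were called with 1 mouse left out. Members at an unadjusted *P* under 0.05 numbered 1, and 1 to 3 with a mouse left out, 3 without Ebf2+/+ mouse 2 (*Cd55*, *Dlk1*, *F3*) or mouse 3 (*Dpp4*, *Dlk1*, *Icam1*), beside 3.98% and 5.40% of all genes tested in those fits, and 2 (*Dlk1*, *F3*) when scaled to fibroblast matrix genes, an alternative added after seeing the data. Members without overlap numbered 2, 1 in CPM of total counts with no TMM factor (*Dlk1*, *Pdgfrb* then overlapping), and 2 to 5 with a mouse left out, 4 without Ebf2+/+ mouse 2 and 5 without mouse 3, where 21.8% and 27.3% of genes did not overlap. The members' median log2 fold change was 0.04 and ran from −0.10 (without Ebf2+/+ mouse 2) to 0.10 with a mouse left out. Log2 fold changes near 0 changed sign for *Pi16* (−0.0082 with filterByExpr, −0.0091 with at least 10 counts in every library, −0.065 scaled to fibroblast matrix genes, −0.13 to 0.20 with a mouse left out), *Pdgfra* (−0.17 to 0.093), *Cd34* (−0.072 to 0.21), and *Ly6a* (−0.020 to 0.17), the last 3 with a mouse left out. The directions of the other 6 members held under all alternatives run. List medians moved by less than the spread between mice in 255 of 273 alternative values, 21 of the 273 had the opposite sign to the main median, and the cause of the 18 larger shifts was not tested. Deviations from the genotype mean over 18905 genes correlated at 0.153, −0.278, and −0.162 between samples with the same replicate number. Pairs with different numbers ran from −0.317 to 0.395. These values depend on each other, since each genotype was centred on its own mean, and cannot exclude pairing or batches. With the replicate block 2 genes were called and *Dlk1* had a log2 fold change of −1.01 (edgeR adjusted *P* = 0.941). With 3 mice per genotype, the 95% intervals given are the limit of precision.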
